A study of Homo sapiens with 6 samples.

Results

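A set of 9 short structural RNAs was followed through 6 RNA-seq libraries of OVCAR5 cells. The study describes OVCAR5 as ovarian cancer cells. The RNAs were the 7SL RNA copies RN7SL1, RN7SL2, RN7SL3 and RN7SL4P, the 7SK RNA gene RN7SK, and RMRP, RPPH1, TERC and SCARNA2. The 9 genes were rows of a table of 60649 gene rows, picked by gene symbol, and they were selected on a pattern already seen in these counts, namely that replicate 1 of both groups stood apart from replicates 2 and 3. The difference between replicate 1 and the other replicates is therefore given below as a description, without a test.

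To examine the effect of the m6A RNA methyltransferase METTL3, OVCAR5 cells were transduced with a lentivirus that carried METTL3, and control cells received the empty-vector virus. Both stable lines were selected with puromycin, and each group had 3 libraries. One label calls the control cells parental, whereas the treatment label and the methods of the study give them the empty vector. No cisplatin treatment is named for these libraries, and separate cultures for the replicates are not stated, so p-values measure the spread between these libraries, which may be technical.

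7SL RNA is the scaffold of the signal recognition particle, which binds signal peptides as they leave the ribosome and brings the ribosome to the endoplasmic reticulum. 7SK RNA holds the transcription elongation kinase P-TEFb in an inactive particle, RMRP and RPPH1 are the RNA subunits of RNase MRP and RNase P, TERC is the template RNA of telomerase, and SCARNA2 guides modification of spliceosomal RNA in Cajal bodies. 7SL, 7SK, RMRP and RPPH1 are made by RNA polymerase III, which ends transcription in a run of T and adds no poly(A) tail, and TERC and SCARNA2 also lack an ordinary tail. The labels describe a library kit that enriches poly(A)+ mRNA.

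The gene models were taken from GENCODE release 44 on hg38. RN7SL1 (ENSG00000276168.1) lies inside an intron of RPS29 on the opposite strand. RN7SL2 (ENSG00000274012.1) and RN7SL3 (ENSG00000278771.1) lie on the same chromosome as RN7SL1. RN7SL4P (ENSG00000263740.2), whose symbol marks it as a pseudogene, lies inside an intron of ANKRD28 on the opposite strand. The copies were aligned in pairs because their likeness bears on which copy a read can be assigned to.

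RN7SL2 was identical to RN7SL1 over 98.3% of the alignment and RN7SL3 over 97.7%. RN7SL3 differed from RN7SL1 at 7 positions without a gap. RN7SL4P was 86.1% identical, and its differences were gathered at the 3′ end, with 6 in the first 230 positions of RN7SL1 and 36 after them. RN7SL5P, a further copy that was not among the 9, was 84.8% identical with 1 difference in the first 230 positions and 48 after. The longest run of A within each of these transcripts was 4 bases.

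Because the copies are near-identical, the share of each gene that occurs once in the main chromosomes of hg38 was computed. Of the 50-base windows of RN7SL1, 15.6% occurred once, compared with 13.1% for RN7SL2, 62.0% for RN7SL3 and 41.9% for RN7SL4P. With 150-base windows the shares were 34.0%, 34.4%, 100% and 70.5%. Assignment of counts to RN7SL1, and to a lesser extent RN7SL4P, is thus uncertain between copies, and how the authors' counting treated reads that match several places is not given in the sources used here. The 50-base share was 22.9% for RN7SK, and 100% for RMRP, RPPH1, TERC and SCARNA2. These last 4 are unique in the genome, although at most 1 count was listed for any of them.

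**Figure D1:**
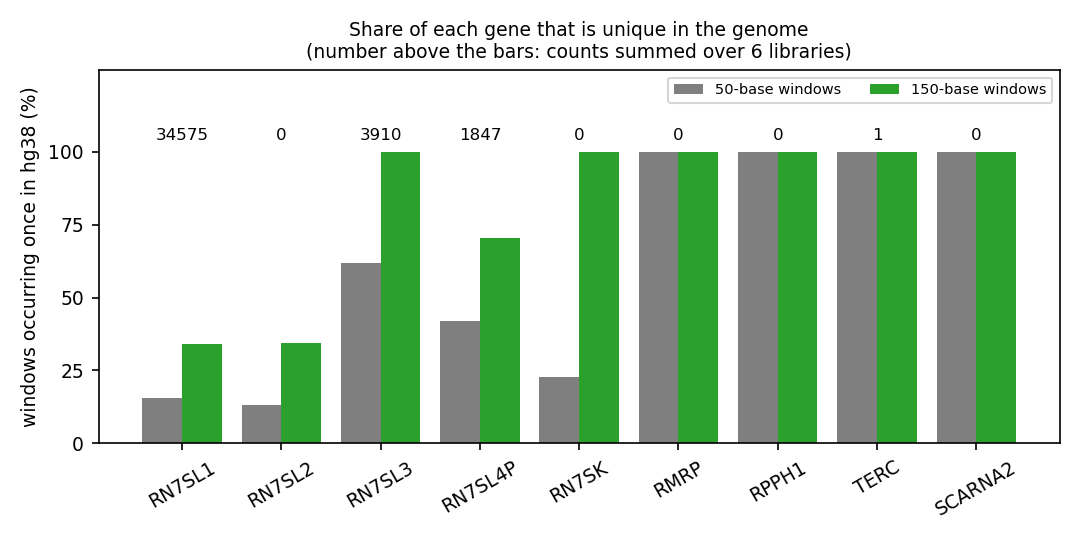
Bars give the percent of 50-base (grey) and 150-base (green) windows of each of the 9 genes that occur once in hg38, and the number above each pair is the gene's counts summed over the 6 libraries. RN7SL1 has the most counts and one of the lowest shares of unique windows, whereas the 4 genes at the right are unique at both lengths and hold 0 or 1 count.

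The 100 bases before the transcription start are shown for RN7SL1, RN7SL2 and RN7SL3, the copies most alike in sequence. Capitals mark TGACGT, a part of the cAMP response element, searched on both strands. In RN7SL1 the bases ca follow it, so a match on the other strand, ACGTCA, overlaps it and is not marked in full. In RN7SL2 the bases aa follow it. The windows are chr14:49586480-49586579 for RN7SL1, chr14:49862850-49862949 for RN7SL2 and chr14:49853915-49854014 for RN7SL3, in hg38, with the bases on the strand of each gene, 5′ to 3′.
RN7SL1 upstream: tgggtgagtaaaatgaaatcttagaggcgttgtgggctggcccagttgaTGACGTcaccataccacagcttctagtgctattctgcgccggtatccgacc
RN7SL2 upstream: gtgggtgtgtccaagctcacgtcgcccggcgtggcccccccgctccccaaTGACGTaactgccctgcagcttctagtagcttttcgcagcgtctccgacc
RN7SL3 upstream: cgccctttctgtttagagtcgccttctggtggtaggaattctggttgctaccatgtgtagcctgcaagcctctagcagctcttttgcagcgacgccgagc
The motif began 51 bases before the start of RN7SL1 and 50 before that of RN7SL2. These letters were not in the window of RN7SL3, nor in that of RN7SL4P, which is not printed. RN7SL2 had 0 counts in every library, so of the copies with counts only RN7SL1 held the motif. Over 35116 RefSeq promoters, 4.25% held the motif in the same 100 bases. A match is a description of the sequence and says nothing of binding.

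Across the series, total counts ranged from 96633925 to 125463386 per library, and 22038 genes passed the filter on low counts. METTL3 was at 152.4, 165.5 and 175.3 CPM (counts scaled to library size with TMM factors) after METTL3 transduction and, in vector replicates 1 to 3, at 80.6, 68.6 and 71.6 CPM, with a log2 fold change of 1.16 (SE 0.117, adjusted p = 0.072 by edgeR's quasi-likelihood test). The epithelial markers EPCAM and KRT8 were at 247 to 483 and 3131 to 5153 CPM, whereas the leukocyte marker PTPRC stayed at or under 0.0708 CPM. Of the ovarian markers, PAX8 was at 6.38 to 11.7 CPM, MUC16 at 1.98 to 49.5, WT1 at or under 0.204 and SOX17 at or under 0.0105. From 67.6% to 70.5% of counts between 1 and 20 were even numbers, and all 37 mitochondrial rows were at 0. Fewer cells of a kind and less RNA per cell cannot be told apart in bulk samples.

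Counts were found for few of the 9 RNAs. RN7SL1, RN7SL3 and RN7SL4P passed the filter and 6 did not. RN7SL2, RN7SK, RMRP, RPPH1 and SCARNA2 were listed at 0 in all 6 libraries, and TERC had 1 count, in vector replicate 2. A floor of 3 counts corresponds to 0.0242 to 0.0316 CPM in these libraries and covers counting error only.

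Several of the RNAs at 0 share their place with a second gene model on the same strand, whose row was also in the table. RN7SL2 is covered over 100% of its length by the lncRNA ENSG00000282885, which had 64, 79 and 71 counts in METTL3 replicates 1, 2 and 3 and 70, 62 and 82 in the vector replicates. The counts of this lncRNA were not raised in replicate 1 of either group. Whether reads from the shared stretch entered either row was not determined, so these counts do not show how RN7SL2 varied. RPPH1 is covered over 100% by the lncRNA ENSG00000259001, with at most 4 counts in a library. RN7SK is covered over 100% by a second model named 7SK, TERC over 81.0% by a model named Telomerase-vert and SCARNA2 over 100% by the lncRNA ENSG00000270066, and these 3 models were at 0 in every library. RMRP and RN7SL3 shared no base with another gene in this annotation release, which left RMRP at 0 without such a neighbour.

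Among 450 rows of short RNA genes that were covered over at least 80% by another model on the same strand, 96.7% were at 0 in all libraries, compared with 60.5% of 4587 such rows that shared no base. A value of 0 for RN7SL2, RN7SK, RPPH1, TERC or SCARNA2 can therefore not be read as absence of the RNA. The part of shared gene models and that of poly(A) enrichment cannot be told apart here. For RN7SL2 and RN7SK, with 13.1% and 22.9% of 50-base windows occurring once, neither can the part of reads that match several places.

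7SL RNA made up nearly all of the counts of the 9 genes. RN7SL1 was at 84.1, 32.1 and 23.9 CPM in METTL3 replicates 1, 2 and 3, whereas the vector replicates had 140.7, 27.0 and 20.8 CPM. RN7SL3 was at 13.2, 3.54 and 2.84 CPM in the METTL3 replicates whereas the vector replicates had 11.9, 2.76 and 2.36 CPM. RN7SL4P was lowest, at 8.21, 1.41 and 0.941 CPM in the METTL3 replicates and 5.02, 0.442 and 1.13 CPM in those with the vector. For each of the 3 copies, replicate 1 of either group was above replicates 2 and 3 of both groups, so the METTL3 and vector libraries overlapped.

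**Figure D2:**
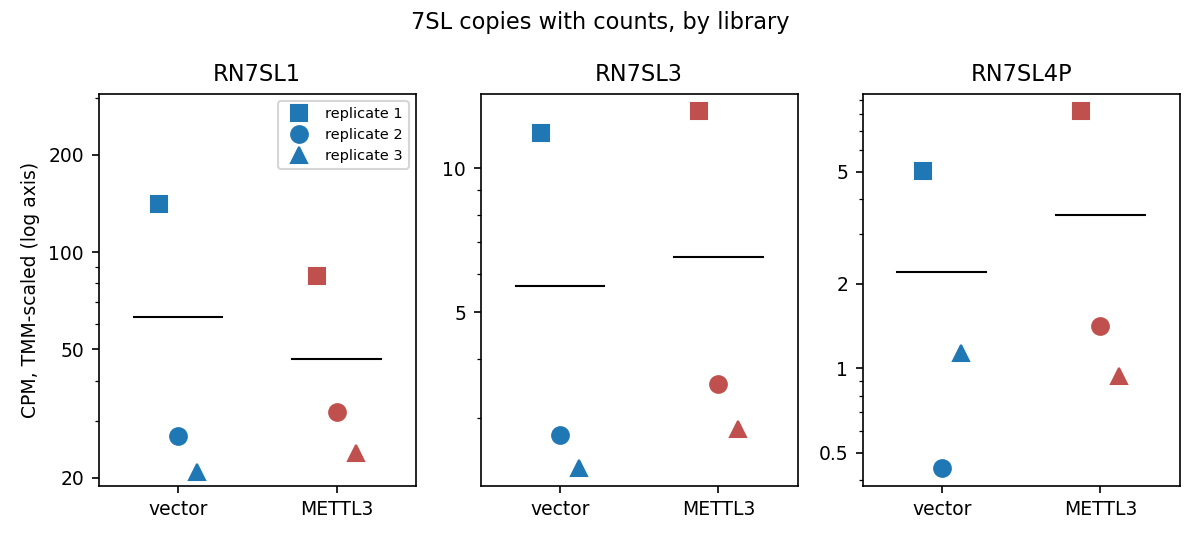
Each point is the level of a 7SL copy in one library, as CPM scaled by TMM on a log axis, and the black line is the group mean (n = 3). Vector libraries are blue and METTL3 libraries red. In each panel the replicate 1 squares sit above the other 4 points, for RN7SL1 at 84.1 and 140.7 CPM.

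The order of the copies was the same in every library, with RN7SL1 above RN7SL3 and RN7SL3 above RN7SL4P. As a level per length, the mean of RN7SL1 was 156.3 CPM per kb with METTL3 and 210.1 with the vector, that of RN7SL3 was 21.8 and 18.9, and that of RN7SL4P was 11.9 and 7.45. The ratio between copies was less steady for RN7SL4P than for RN7SL3. For every 100 counts of RN7SL1, RN7SL3 had 15.7, 11.04 and 11.9 in the METTL3 replicates and 8.43, 10.2 and 11.3 in the vector replicates. RN7SL4P had 9.76, 4.40 and 3.93 and then 3.57, 1.64 and 5.43, on as few as 50 counts in vector replicate 2.

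Replicate 1 differed from the other replicates of its own group in the same direction in METTL3 and vector cells, which is the pattern the RNAs were selected on. The size was close between groups for RN7SL3 and RN7SL4P and larger with the vector for RN7SL1. On the log2 scale, RN7SL1 in replicate 1 was above the mean of replicates 2 and 3 by 1.60 with METTL3 (3.03-fold) and by 2.57 with the vector (5.93-fold). RN7SL3 was above by 2.05 (4.13-fold) and 2.21 (4.62-fold), and RN7SL4P by 2.81 (7.02-fold) and 2.79 (6.92-fold). By comparison, replicates 2 and 3 differed by 0.42 and 0.37 for RN7SL1, by 0.32 and 0.22 for RN7SL3, and by 0.58 and -1.32 for RN7SL4P.

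The 3 counted 7SL copies were each at least 1 log2 unit higher in replicate 1 of both groups, as were 1.6% of the 22038 genes tested, and nothing is read from this count since it is how they were chosen. In the other direction, 226 genes were at least 1 log2 unit lower in replicate 1 of both groups. The median over all genes was 0.015 with METTL3 and 0.065 with the vector. When all genes were ordered by this difference, RN7SL1 was at position 298 in METTL3 cells and 30 in vector cells.

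**Figure D3:**
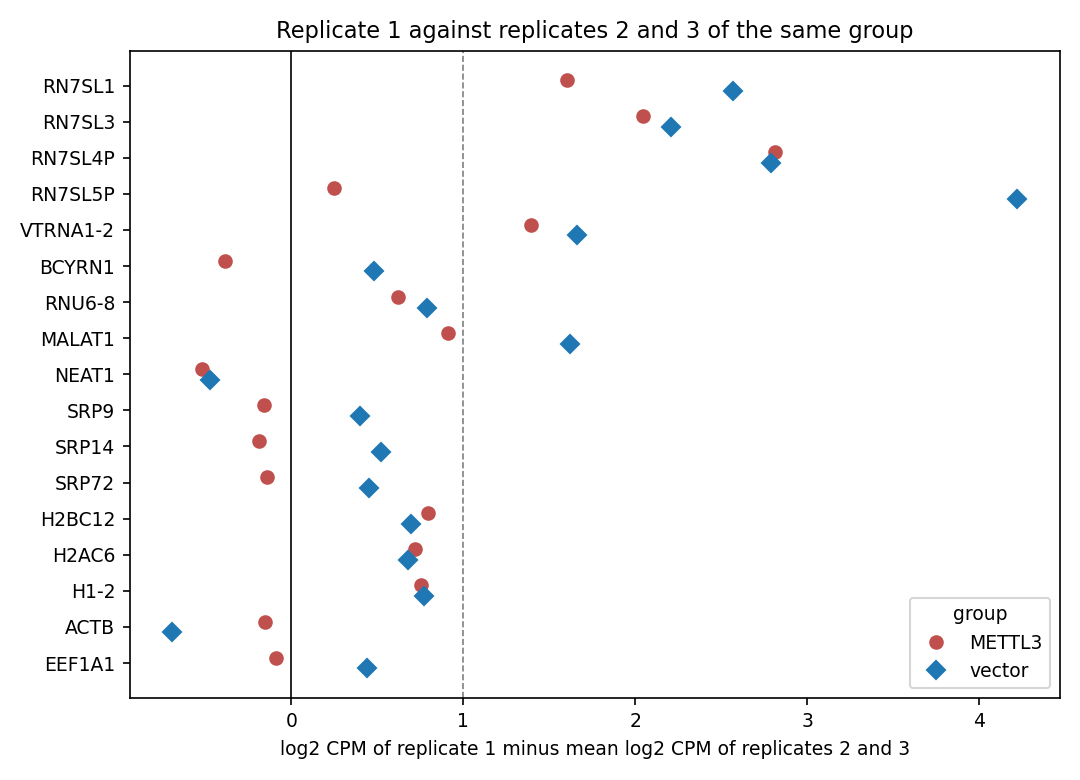
Points give the log2 CPM of replicate 1 minus the mean log2 CPM of replicates 2 and 3 of the same group, for METTL3 (red circles) and vector (blue diamonds). The dashed line marks 1 log2 unit. RN7SL1, RN7SL3, RN7SL4P and VTRNA1-2 lie beyond it in both groups, RN7SL5P and MALAT1 only with the vector, and NEAT1 and ACTB lie below 0 in both.

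The genes around the 7SL copies were examined in the same libraries. RPS29, a ribosomal protein gene whose intron holds RN7SL1 on the other strand, was at 330.5, 293.5 and 306.8 CPM in the METTL3 replicates whereas the vector replicates were at 536.8, 284.8 and 337 CPM. ANKRD28, which holds RN7SL4P, was at 60.3, 73.1 and 70.7 CPM and then 56.0, 61.1 and 63.0 CPM. RPS29 was thus highest in replicate 1 of each group, by 0.14 with METTL3 and 0.79 with the vector on the log2 scale, whereas ANKRD28 was lowest in replicate 1 of each group.

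To determine whether 7SL levels differed with METTL3, the groups were compared with edgeR's quasi-likelihood test on all 6 libraries. None of the 3 tested copies passed an adjusted p of 0.05, and the share of all 22038 genes tested that passed was 0.0%. RN7SL1 averaged 46.7 ± 32.6 CPM in METTL3 cells and 62.8 ± 67.5 CPM in vector cells (SD, n = 3), a log2 fold change of -0.43 (SE 0.736, edgeR adjusted p = 0.874). For RN7SL3 the means were 6.52 ± 5.77 and 5.66 ± 5.37 CPM, with a log2 fold change of 0.21 (SE 0.738, edgeR adjusted p = 0.947). For RN7SL4P they were 3.52 ± 4.07 and 2.20 ± 2.47 CPM, with a log2 fold change of 0.69 (SE 0.976, edgeR adjusted p = 0.844). The SD was of the order of the mean for each copy, and differences of the fitted size were not detectable against this spread. The RNAs were selected for a replicate 1 that stood apart, so a wide spread was largely set beforehand. The lack of a call therefore does not show that 7SL levels were equal.

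The exact two-sided permutation test gave p = 0.9 for RN7SL1, p = 0.5 for RN7SL3 and p = 0.6 for RN7SL4P, where 3 libraries against 3 cannot go below 0.1. No copy had groups that did not overlap, whereas 17.4% of all genes tested had such groups. Over the whole table edgeR called 0 genes, with 1830 at an unadjusted p under 0.05. DESeq2 called 225 (0.522% of rows with counts) and none of the 3 copies.

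Replicates 2 and 3 alone gave narrower errors. The RNAs were selected for a replicate 1 that stood apart, so narrower errors without it were built in. In these 4 libraries the log2 fold change was 0.23 for RN7SL1, 0.32 for RN7SL3 and 0.59 for RN7SL4P, with edgeR adjusted p = 0.559, 0.21 and 0.393. None of the 3 passed, although 15.2% of all genes did in this comparison. The sign for RN7SL1 turned with replicate 1 left out of the vector group, to 0.97, and with replicate 1 left out of the METTL3 group the values for RN7SL3 and RN7SL4P became -0.79 and -0.85. Leaving out replicate 1 of a single group removes a high value from that group only, so shifts in these directions follow from the selection. Between libraries of the same replicate number, RN7SL3 was higher with METTL3 for each of the 3 numbers, though no source states that numbers pair libraries. With the replicate number as a block the log2 fold change of RN7SL3 was 0.26 (SE 0.135, edgeR adjusted p = 0.509).

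**Figure D4:**
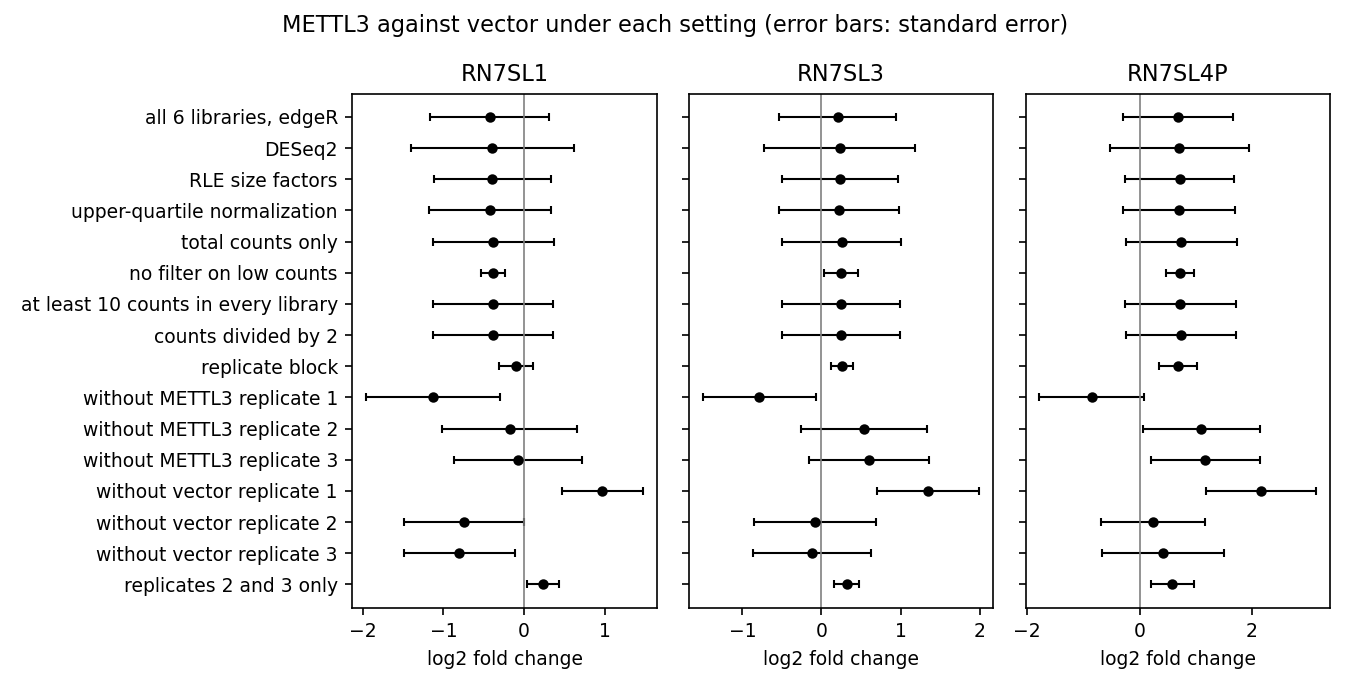
Points are the log2 fold change of METTL3 against vector for RN7SL1, RN7SL3 and RN7SL4P under each way of fitting the counts, with the standard error as bars. RN7SL1 goes from -0.43 with all 6 libraries to 0.97 without vector replicate 1, RN7SL3 turns negative without METTL3 replicate 1 (-0.79), vector replicate 2 (-0.08) or vector replicate 3 (-0.12), and RN7SL4P turns negative without METTL3 replicate 1 (-0.85).

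The remaining 7SL copy, RN7SL5P, varied from library to library in another way. It was at 1.84, 5.26 and 0.446 CPM in METTL3 replicates 1, 2 and 3 whereas the vector replicates were at 28.1, 1.03 and 2.13 CPM. Vector replicate 1 stood highest, METTL3 replicate 2 came next, and the groups overlapped. The log2 fold change was -2.04 (SE 1.218, edgeR adjusted p = 0.65), and it was 0.68 without vector replicate 1. The other 675 rows of 7SL-derived pseudogenes summed to 9.77, 6.34 and 8.05 CPM with METTL3, against 9.25, 6.80 and 6.67 CPM with the vector, so that replicate 1 was 1.36-fold and 1.37-fold the mean of the others.

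Proteins that act with these RNAs were followed as lists chosen with results of these data known, and in each list edgeR called 0 genes in either direction, as over the whole table. Of the 6 signal recognition particle proteins, 1 had a positive and 5 a negative fold change, with a median log2 fold change of -0.20 beside -0.02 for all genes. SRP9, which pairs with SRP14 on the Alu domain of 7SL, was at 203.6, 222.7 and 231.5 CPM with METTL3, against 305.6, 224.2 and 239.9 CPM with the vector. Replicate 1 minus the mean of the others was -0.16 in METTL3 cells and 0.40 in vector cells on the log2 scale, unlike the 7SL copies, which were higher in both. SRP14 and SRP72 had the same signs, at -0.19 and 0.52 for SRP14 and -0.14 and 0.45 for SRP72. Of the 6 proteins, 1 was higher in replicate 1 of both groups and 0 were lower in both.

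The 9 genes of the SRP receptor and translocon had 2 positive and 7 negative fold changes with a median of -0.14. SEC61A1, the channel subunit, was at 297.7 to 351.8 CPM, with a log2 fold change of 0.08 (SE 0.112). Of the 7 genes of the 7SK particle and P-TEFb, 5 were positive and 2 negative with a median of 0.04, and the kinase CDK9 and the 7SK-bound inhibitor HEXIM1 had log2 fold changes of 0.02 and -0.10. The 11 RNase P and RNase MRP proteins had 3 positive and 8 negative values with a median of -0.21, including POP1 at -0.21 and RPP30 at -0.23. The 9 telomerase and H/ACA proteins had 2 positive and 7 negative values with a median of -0.18, including the pseudouridine synthase DKC1 at -0.18 (SE 0.138). In replicate 1, 5 of the SRP receptor and translocon genes were higher in both groups and 1 was lower in both. For the 7SK particle and P-TEFb these counts were 4 and 0. They were 1 and 1 for RNase P and RNase MRP, and 0 and 2 for telomerase and H/ACA proteins. No share over all genes was computed beside them.

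The polymerase that makes most of these RNAs was measured through 13 subunits, of which 4 had positive and 9 negative fold changes with a median of -0.03. POLR3A, its largest subunit, was at 41.6, 46.5 and 45.5 CPM with METTL3, against 41.3, 47.8 and 45.0 CPM with the vector, so replicate 1 was the lowest of each group. Of the 13 subunits, 2 were higher and 3 lower in replicate 1 of both groups, with medians of -0.05 with METTL3 and 0.26 with the vector. Of 20 RNA polymerase III factors, 8 were positive and 12 negative with a median of -0.03. MAF1, the repressor of the polymerase, had a log2 fold change of -0.12 and SSB, the La protein that binds the 3′ U run of new transcripts, one of -0.32 (SE 0.166, edgeR adjusted p = 0.633). In replicate 1, 7 of the 20 factors were lower than in the other replicates in both groups and 2 were higher in both.

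Other RNAs of RNA polymerase III were sparse. Of 17 rows found, 3 were at 0 and 5 passed the filter, all 5 with negative fold changes and 0 called, with a median log2 fold change of -0.48. BCYRN1, a brain cytoplasmic RNA related to the 7SL Alu domain, was at 11.4, 15.8 and 14.1 CPM with METTL3, against 27.99, 16.3 and 24.7 CPM with the vector. Its groups did not overlap, with a log2 fold change of -0.74 (SE 0.216, edgeR adjusted p = 0.454). VTRNA1-2, a vault RNA, was the 1 RNA of the list beyond 1 log2 unit in replicate 1 of both groups, at 1.39 and 1.66, on levels of 0.258 to 1.10 CPM. RNU6-8, a U6 copy, was 0.62 and 0.79 higher in replicate 1 at 0.169 to 0.485 CPM.

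RNAs of the nucleus with other 3′ ends were compared in the same way. Of 19 rows of spliceosomal and histone-processing snRNAs, 8 were at 0 and 0 passed the filter, with sums of at most 0.675 CPM in a library. Of 22 scaRNA rows, 8 were at 0 and 2 passed, SCARNA7 at -0.58 and SCARNA9 at -0.25 log2 fold change. Of 8 rows of box C/D snoRNAs with their own promoter, 2 passed, and the U3 copy SNORD3A was at 0.576, 0.613 and 0.644 CPM with METTL3, against 1.13, 0.602 and 0.462 CPM with the vector. Its replicate 1 was above the others only with the vector, by 1.07 beside -0.12 with METTL3, a difference between groups that was not tested.

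MALAT1, a nuclear RNA whose 3′ end is a triple helix in place of a poly(A) tail, was far more abundant, at 736.3, 358.6 and 427.8 CPM with METTL3, against 1321, 460.5 and 400.0 CPM with the vector. Replicate 1 was the highest of each group, by 0.91 and 1.62 on the log2 scale. NEAT1, of which the short form carries a poly(A) tail, went the other way, at 316.8, 419.5 and 491.5 CPM and 356.0, 539.4 and 454.6 CPM, with replicate 1 at -0.52 and -0.48 relative to the others. The 2 log2 fold changes with METTL3 were -0.52 (SE 0.461) and -0.14 (SE 0.203), and neither passed.

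Replication-dependent histone mRNAs, which end in a stem-loop without a tail, were higher in replicate 1 of both groups for 28 of the 42 that passed the filter and lower in both for 0. The share of all genes higher in both by any amount was not computed, so this count has no background. Of the 42, 1 was at least 1 log2 unit higher in both groups, beside 1.6% of all genes tested. Single values ran from -1.36 to 2.51. The summed level of the histone mRNAs was 147.8, 93.8 and 92.6 CPM with METTL3, against 127.1, 83.8 and 83.3 CPM with the vector, which puts replicate 1 at 1.59-fold and 1.52-fold the mean of the others. H2BC12, for example, was 0.79 and 0.69 higher on the log2 scale. With METTL3, 28 of the 42 had positive and 14 negative fold changes with a median of 0.10, and 0 were called. Of 15 polyadenylated housekeeping mRNAs, 3 were positive and 12 negative with a median of -0.17. In replicate 1 their medians were -0.11 with METTL3 and 0.44 with the vector, with 3 higher and 2 lower in both groups.

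Annotated classes of short RNA differed among themselves in replicate 1. The misc_RNA rows without the 5 RN7SL copies summed to 27.6, 18.2 and 19.6 CPM with METTL3, against 25.6, 18.9 and 17.2 CPM with the vector, a ratio of replicate 1 to the mean of the others of 1.46 and 1.42. For snRNA rows the ratios were 1.55 and 1.40, for 7SK-derived pseudogenes 1.68 and 1.39, and for snoRNA rows 1.09 and 1.60. The scaRNA rows had ratios of 1.07 and 1.64, Y RNA pseudogenes 0.80 and 1.31, and the sparse rRNA rows 1.71 and 0.274. Replicate 1 was thus higher in both groups for the misc_RNA, snRNA and 7SK-derived rows, and also, by little with METTL3, for the snoRNA and scaRNA rows. Y RNA pseudogenes were lower in METTL3 cells and rRNA rows in vector cells. The part of these classes in the 7SL values was not tested.

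Among 14681 tested genes with a mean of at least 1 CPM, the profile over the 6 libraries most like that of the summed RN7SL1, RN7SL2 and RN7SL3 counts was sought as the smallest root mean square difference of centred log2 CPM. PPBP, a platelet chemokine, was closest at 0.324, followed by the lncRNA SEC61G-DT at 0.359, the keratin KRT4 at 0.362 and VTCN1, a ligand that restrains T cells, at 0.377, beside a median of 1.034 over all genes. The others of the 10 were ENSG00000254363, the nucleotide kinase CMPK2, IRAG1, the calcium-binding protein S100P, GARIN1A and the ETS factor ETV7. Of the 10, 8 were protein-coding and 2 were lncRNAs. PPBP was at 20.6, 9.26 and 10.7 CPM with METTL3, against 43.1, 5.90 and 5.80 CPM with the vector. MALAT1 was at position 11, with a difference of 0.467.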

How the data were processed

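mRNA was sequenced from 3 METTL3 and 3 vector OVCAR5 libraries. The authors deposited raw counts per gene, whole numbers without normalization. Submitters' processing notes name fastp, HISAT2, featureCounts and Subread with GRCh38/hg38, but tool versions, the gene annotation used, the strand setting and the handling of multiply matching reads are not given in the sources used here. The labels describe a stranded TruSeq kit, whereas the methods describe NEBNext and single-end reads. Reads from a gene and one overlapping it on the other strand may therefore not be told apart. Total counts per library were 96633925 to 125463386, so counting error was small for RN7SL1 and larger for RN7SL4P.

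Gene identifiers without version matched GENCODE release 44 for 60507 rows, and 142 stayed unnamed. The filter was filterByExpr and the scaling TMM, both in edgeR 4.0.16 (R 4.3.3), and groups were tested by glmQLFTest after a robust glmQLFit, p-values being adjusted by Benjamini-Hochberg over all genes tested and a threshold of 0.05. Log2 CPM used a prior count of 2. DESeq2 1.42.0, other scalings, other filters, the replicate number as a block, and omission of libraries were alternatives. The functions were tested on simulated counts. Sequences were read from hg38 and aligned with Biopython 1.88. None of the 9 genes had a promoter in the RefSeq table. The transcript sequences of the 7SL copies are not reported here.

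The members and lists were chosen with earlier results of these data known. Named genes are the 9 RNAs, METTL3, from each list those highest in mean CPM (3, or 6 for short RNAs), any called gene, and the 10 most similar profiles. Genes given for the place they hold, RPS29, ANKRD28 and the overlapping models, were named after their values were seen. RNY5, SNAR-A1, RNU2-2, H2AC18 and H2AC19 had no matching row. Deviations of same-numbered libraries from their group means correlated at 0.334, 0.120 and 0.175 for replicates 1, 2 and 3. Each was above the minimum of 0.1, and the number was used as a block in an alternative fit. METTL3 replicate 2 with vector replicate 3 gave 0.205, and METTL3 replicate 3 with vector replicate 2 gave 0.133. Both are above the 0.120 of replicate 2, so pairing by number was not borne out for replicates 2 and 3. Neither labels nor methods state a pairing.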

Additional observations from a re-analysis of the deposited data

How the results depend on the processing

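With all 6 libraries edgeR called 0 genes. DESeq2 called 225, edgeR without a filter on low counts 560, and replicates 2 and 3 alone 3362. With each library left out in turn the count ran from 0 to 367, the latter without vector replicate 1. The 3 tested 7SL copies were called under no setting, with adjusted p from 0.357 to 0.989 over 16 alternatives for RN7SL1, 0.21 to 0.986 over 15 for RN7SL3 and 0.177 to 0.964 over 15 for RN7SL4P. The sign changed when single libraries were left out of the unpaired fit. RN7SL1 went from -0.43 to 0.23 in replicates 2 and 3 alone, and from -1.13 to 0.97 when each library was left out. RN7SL3 ran from -0.79 to 1.35 and RN7SL4P from -0.85 to 2.16. Shifts with replicate 1 of a single group left out follow from the selection, and the cause of the other turns was not tested. RN7SL3 was -0.08 without vector replicate 2 and -0.12 without vector replicate 3. With the replicate block, edgeR called 0 genes (2480 at an unadjusted p under 0.05), and the log2 fold changes were -0.10 (SE 0.209) for RN7SL1, 0.26 (SE 0.135) for RN7SL3 and 0.69 (SE 0.346) for RN7SL4P, so it changed no call. METTL3 itself passed with DESeq2 (1.18), without a filter (1.18), without vector replicate 1 (1.23) and in replicates 2 and 3 alone (1.28). Of the list genes, BCYRN1 and RN7SL5P passed without a filter, and BDP1, H2BC12, H4C12, POLR3G and SRP68 in replicates 2 and 3 alone. For RN7SL5P without a filter the log2 fold change was -1.98 (SE 0.221, edgeR adjusted p = 1.57e-15). With the filter it was -2.04 with a wider error (SE 1.218, edgeR adjusted p = 0.65). The small p thus rests on the narrower error of the unfiltered fit, and the RN7SL5P fold change was 0.68 without vector replicate 1. For the rows at 0, depth limits only counts that could have been assigned to them.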
